A study of Rattus norvegicus with 9 samples.

Results

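The genes described here encode splicing factors and spliceosome proteins, and their transcripts were measured in rat aortic smooth muscle cells (RASMC) whose Na+,K+-ATPase was inhibited in 2 ways. A gene belonged to the set when its annotated symbol began with Srsf, Snrp, Hnrnp, Sf3a, Sf3b, U2af or Prpf, or was Clk1, Clk2, Clk3, Clk4, Tra2a or Tra2b, and a gene with several probe sets was followed through the brightest of them. This gave 63 of the 14324 gene symbols on the array, read from 77 probe sets with a single symbol each. They comprised 8 snRNP (small nuclear ribonucleoprotein) proteins, 10 proteins of the U2 particle and branch site, 11 pre-mRNA processing factors, 13 SR proteins, 4 kinases of SR proteins and 17 hnRNP proteins (heterogeneous nuclear ribonucleoproteins). All 63 keep the same symbol in RefSeq, where 82 protein-coding symbols follow the same rule.

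RASMC were bought as cultured cells and made quiescent in low-serum DMEM, a standard culture medium. All cells, the controls included, were rinsed with K+-free DMEM and then kept for 6 hr in ordinary DMEM (Control), in DMEM with 3 mM ouabain (Ouabain) or in K+-free DMEM (K_Free). Ouabain binds the α subunit of the pump and blocks it, whereas K+-free medium withholds the ion that the pump carries inward. RNA from 3 cultures per group was hybridised to 9 Rat Gene 1.0 ST arrays, whose gene-level probe sets do not separate splice isoforms, and the methods describe 3 independent experiments with control and treatments run in parallel. How many animals the cells came from is not given in the sources used here.

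Splicing removes introns from nuclear pre-mRNA. The snRNPs recognise the splice sites and build the spliceosome, with U2AF and the U2 particle marking the 3′ splice site and branch point and the tri-snRNP bringing in the catalytic core. SR proteins bind exons and mostly favour their inclusion, the CLK kinases phosphorylate the serine-arginine domains of SR proteins, and hnRNP proteins coat pre-mRNA and often counter them.

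The deposited values are log2 signals, so that a difference of 1 is a 2-fold change. The 9 arrays had medians of 6.76 to 6.80 and correlated with each other at 0.971 to 0.9984 over all 27342 probe sets. The splicing genes gave bright signals: 61 of 63 had a mean above 6.78, the median of all probe sets, and Srsf12 (mean 5.08) and Snrpn (6.21) were the dim ones. Of the smooth muscle markers, 7 of 8 measured lay above the array median, Tagln and Cnn1 among them, whereas none of 4 endothelial markers did. The log2 of the summed signal of 7 macrophage and leukocyte markers, of which 2 (Cd14 and Cd68) lay above the median, was 9.08 to 9.22 in Control, 10.06 to 10.15 in Ouabain and 9.48 to 9.69 in K_Free. That of the 8 smooth muscle markers was 14.47 to 14.52, 14.16 to 14.36 and 14.34 to 14.37, a sum that is set by Tagln and Cnn1. Singly, 5 of the 8 were lower with ouabain and 3 in K_Free, Lmod1 by 3.05-fold and 2.79-fold and Myh11 by 1.62-fold and 1.54-fold. The summed signal of 6 fibroblast markers was 13.96 to 14, 14.03 to 14.17 and 14.18 to 14.21, with Fap 1.51-fold higher with ouabain and Lum and Pdgfra 1.22-fold and 2.46-fold higher in K_Free. Singly, 3 of the 7 macrophage and leukocyte markers were higher in each treatment and 0 were lower. Cd68 rose 2.44-fold and 1.92-fold, Cd14 2.42-fold and 1.35-fold, and Csf1r 1.26-fold and 1.45-fold. Ptprc, the pan-leukocyte marker, did not pass and stayed below the array median in every group (means 5.59, 5.67 and 5.67). Whether other cells had a part in the differences below was not tested, and a change in the number of cells cannot be told apart from a change in RNA per cell in such bulk samples.

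The splicing genes moved in both directions. Against control, 18 of the 63 were higher with ouabain, 17 were lower and 28 did not pass the test, which was limma's at a Benjamini-Hochberg adjusted p under 0.05 together with a fold above 1.2. As shares these are 28.6% and 27.0%, beside 17.5% and 22.7% of all gene symbols (15.8% and 16.8% of all probe sets). In K+-free medium 17 were higher and 15 lower (27.0% and 23.8%), beside 17.8% and 24.0% of gene symbols and 16.1% and 17.9% of probe sets, so the share that was lower stood at the background. The median log2 difference was -0.01 with ouabain and 0.03 in K_Free. The median size regardless of sign was 0.33 and 0.29, against 0.20 and 0.21 over all gene symbols. The shares and median sizes of all symbols or probe sets, here and below, were not matched for brightness. The splicing genes were brighter, with a median of 10.51 beside 6.78. Without the dimmest 25% of probe sets, 20.1% were higher and 22.1% lower with ouabain, and 20.6% and 23.6% in K_Free. The counts of splicing genes stayed the same, so their excess over all probe sets was smaller there. Centring the arrays on B2m, the reference gene of the study's RT-PCR, changed the split to 11 higher and 21 lower with ouabain and to 11 and 23 in K+-free medium, and centring on 11 reference genes gave 12 and 20, and 15 and 19. Under B2m centring 7.92% of all probe sets were higher and 22.8% lower with ouabain, and 8.69% and 25.8% in K_Free. Under reference gene centring these shares were 9.05% and 21.0% with ouabain, and 11.3% and 21.0% in K_Free. No gene that passed the test changed its sign under any of these scalings.

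Changes were moderate in size. No splicing gene differed by more than 2-fold with ouabain, where 7.27% of all gene symbols did, and 6 did so in K+-free medium (8.62% of symbols): Snrpa, Srsf5 and Srsf6 were lower, and Clk4, Prpf3 and Sf3a1 were higher. Replicates lay close together, and the 3 arrays of a treatment did not overlap those of control for 50 genes with ouabain and 51 in K+-free medium, beside 54.2% and 57.1% of all probe sets. With 3 arrays against 3, an exact permutation test of a single gene cannot give a p below 0.1, so calls rest on limma's spread shared across probe sets.

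**Figure D1:**
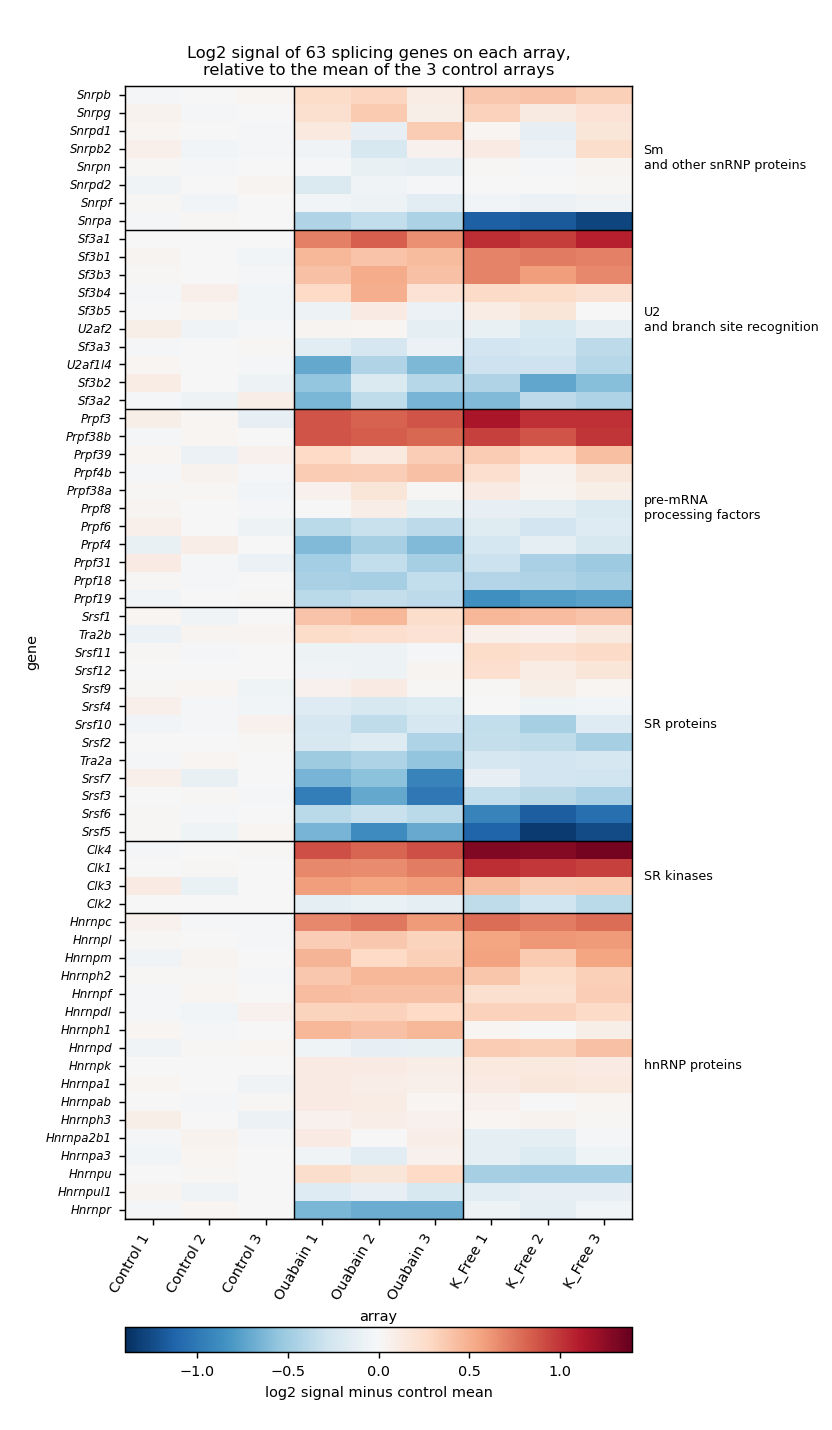
Heat map of the 63 genes (rows, grouped by role) on the 9 arrays (columns), coloured by the log2 signal minus the mean of the 3 control arrays, red for higher and blue for lower. Clk4 and Clk1 are red on all 6 treated arrays and Srsf5 is blue on all of them, while Hnrnpr is dark blue only with ouabain and Hnrnpu is blue only in K+-free medium.

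Among the snRNP proteins only Snrpa, which encodes the A protein of the U1 particle that recognises the 5′ splice site, fell in both treatments. It read 10.24, 10.28 and 10.25 on the control arrays, 9.84, 9.92 and 9.82 with ouabain and 9.12, 9.08 and 8.97 in K+-free medium. The 3 groups stood apart, with K+-free medium lowest. The fall was 1.32-fold with ouabain (adjusted p = 0.000135) and 2.3-fold in K+-free medium (adjusted p = 2.05e-08).

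The Sm proteins form a ring that most of the major spliceosomal snRNAs carry. Snrpb, which encodes Sm B, rose 1.29-fold in K+-free medium (adjusted p = 0.000414), a call lost under B2m centring, and its ouabain difference of 0.22 was below the fold limit. Snrpd1, Snrpd2, Snrpf and Snrpg did not pass in either treatment, with log2 differences between -0.09 and 0.22, nor did the U2 protein gene Snrpb2 (-0.08 and 0.09) or Snrpn, a tissue-restricted relative of Snrpb (-0.08 and 0.01). In counts, 0 of 8 rose and 1 fell with ouabain (0% and 12.5%, beside 17.5% and 22.7% of all gene symbols). In K_Free 1 rose and 1 fell (12.5% each, beside 17.8% and 24.0%).

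The U2 and branch site group split within its own complexes. There were 4 rises and 3 falls among the 10 genes with ouabain (40.0% and 30%, beside 17.5% and 22.7% of all gene symbols). In K_Free there were 3 and 4 (30% and 40.0%, beside 17.8% and 24.0%). Sf3a1, a subunit of SF3a, read 9.90, 9.89 and 9.89 in control, 10.60, 10.73 and 10.53 with ouabain and 10.92, 10.86 and 10.98 in K+-free medium, a separation of all 3 groups. It rose 1.66-fold and 2.04-fold (adjusted p = 2.24e-06 and 1.25e-07). Its partner Sf3a2 fell, by 0.54 and 0.47 on the log2 scale, and the remaining SF3a gene Sf3a3 fell by 0.29 in K_Free (adjusted p = 0.00136), a call that was lost without K_Free replicate 3.

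In SF3b, whose largest subunit SF3B1 contacts the branch site, Sf3b1 and Sf3b3 rose in both treatments. Sf3b1 read 11.48, 11.44 and 11.40 in control, 11.91, 11.84 and 11.88 with ouabain and 12.13, 12.17 and 12.15 in K+-free medium. All treated arrays lay above all control arrays, and the rise was 1.35-fold and 1.64-fold. Sf3b3 rose by 0.45 and 0.66 on the log2 scale. Sf3b2 instead fell, by 0.38 and 0.59 on that scale, the former not passing in the methods' t-test, and Sf3b4 rose by 0.33 with ouabain (adjusted p = 0.0048), a call that was lost without Ouabain replicate 2, under the B2m and reference gene centrings, and in the methods' t-test. Sf3b5 did not pass (-0.01 and 0.09).

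U2af2 encodes the large U2AF subunit, which binds the pyrimidine tract. Its log2 differences of -0.03 (95% interval -0.17 to 0.11) and -0.15 (-0.30 to -0.01) did not pass. U2af1l4, a relative of the small subunit, read 9.80, 9.76 and 9.75 in control, 9.05, 9.35 and 9.14 with ouabain and 9.48, 9.48 and 9.37 in K+-free medium, so that the ouabain arrays were the lowest. It fell 1.51-fold with ouabain and 1.25-fold in K+-free medium, where the call was lost when quantile normalization was repeated.

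Of the pre-mRNA processing factors, 3 of 11 rose and 5 fell with ouabain (27.3% and 45.5%, beside 17.5% and 22.7% of all gene symbols). In K_Free 3 rose and 3 fell (27.3% each, beside 17.8% and 24.0%), so the share that was lower stood near the background. Prpf3, a tri-snRNP protein, read 9.20, 9.15 and 9.01 in control, 10.00, 9.95 and 10.00 with ouabain and 10.26, 10.14 and 10.14 in K+-free medium. Every treated array was above every control array, and the rise was 1.82-fold and 2.09-fold (adjusted p = 5.29e-07 and 9.41e-08). Prpf38b rose 1.79-fold and 1.92-fold. Prpf39, related to yeast U1 proteins, rose by 0.35 on the log2 scale in K_Free, with 0.25 in ouabain just under the fold limit, and the kinase gene Prpf4b rose by 0.37 with ouabain, with 0.15 in K+-free medium not passing. B2m centring removed the calls of both genes, and reference gene centring that of Prpf4b.

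Other tri-snRNP genes went the opposite way to Prpf3. Prpf4, whose product forms a complex with that of Prpf3, read 9.68, 9.87 and 9.77 in control, 9.16, 9.31 and 9.16 with ouabain and 9.53, 9.64 and 9.56 in K+-free medium. It fell 1.48-fold with ouabain, while the K+-free difference of -0.20 was under the fold limit. Prpf31 fell by 0.43 and 0.42 on the log2 scale, and Prpf6 fell by 0.35 with ouabain. These 3 calls were lost when quantile normalization was repeated.

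Prpf19, the ubiquitin ligase at the centre of the Prp19 complex, read 11.35, 11.40 and 11.41 in control, 11.01, 11.06 and 11.02 with ouabain and 10.53, 10.61 and 10.64 in K+-free medium. The groups formed 3 steps, with falls of 1.28-fold and 1.73-fold from control (adjusted p = 0.000149 and 1.95e-07). Prpf18, which acts in the later catalytic step, fell by 0.43 and 0.44 on the log2 scale. Prpf8, the scaffold of the catalytic core, did not pass (-0.01 and -0.15), nor did Prpf38a (0.08 in each).

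More SR proteins fell than rose. With ouabain 7 of 13 fell (53.8%, beside 22.7% of all gene symbols), 1 rose and 5 did not pass, and in K+-free medium 5 fell (38.5%, beside 24.0%), 1 rose and 7 did not pass. The median log2 difference of the 13 was -0.28 and -0.22, beside 0.06 and 0.05 over all gene symbols. B2m centring gave 8 and 7 of the 13 lower, with 0 and 1 higher. Under it 22.8% and 25.8% of all probe sets were lower, and 7.92% and 8.69% were higher.

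Srsf3, a small SR protein with roles in exon choice and mRNA export, read 10.59, 10.62 and 10.58 in control, 9.63, 9.88 and 9.60 with ouabain and 10.25, 10.21 and 10.15 in K+-free medium. Ouabain gave the lowest arrays, K+-free medium lay between and control was highest, without overlap. The fall was 1.86-fold with ouabain (log2 -0.89 ± 0.072 SE, adjusted p = 1.43e-06) and 1.31-fold in K+-free medium (-0.39 ± 0.072, adjusted p = 0.000925).

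Its close relative Srsf7 read 10.41, 10.24 and 10.35 in control, 9.69, 9.77 and 9.41 with ouabain and 10.22, 10.07 and 10.06 in K+-free medium. The ouabain arrays were again lowest, with a fall of 1.64-fold (adjusted p = 6.73e-05). The K+-free arrays lay just below control and did not pass (log2 -0.22, 95% interval -0.42 to -0.02, adjusted p = 0.0701). Tra2a, an SR-like activator, showed the same order: 10.46, 10.51 and 10.47, then 9.98, 10.05 and 9.93, then 10.25, 10.21 and 10.25. It fell 1.41-fold with ouabain, and its K+-free difference of -0.24 was under the fold limit.

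Srsf5 and Srsf6, another related pair of SR genes, had the opposite order, with K+-free medium lowest. Srsf5 read 10.19, 10.11 and 10.20 in control, 9.52, 9.29 and 9.46 with ouabain and 9.05, 8.83 and 8.92 in K+-free medium, falls of 1.68-fold and 2.36-fold (adjusted p = 8.18e-06 and 1.27e-07). Srsf6 read 10.92, 10.88 and 10.91 in control, 10.52, 10.59 and 10.52 with ouabain and 9.97, 9.75 and 9.85 in K+-free medium, falls of 1.28-fold and 2.06-fold. None of the 3 groups overlapped for either gene.

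Srsf2, an SR protein that stays in the nucleus, fell by 0.28 and 0.38 on the log2 scale, and Srsf10, which can repress splicing when dephosphorylated, by 0.28 and 0.32. These were near the fold limit: the ouabain call of Srsf2 was lost without Ouabain replicate 3 and in the methods' t-test, and those of Srsf10 without Control replicate 3 or Ouabain replicate 2 (ouabain) and without K_Free replicate 2 or in the methods' t-test (K+-free medium). Srsf1, the prototype SR protein, was the exception in the family and rose 1.29-fold and 1.35-fold. It read 9.31, 9.23 and 9.29 in control, 9.68, 9.74 and 9.53 with ouabain and 9.74, 9.71 and 9.68 in K+-free medium, and its ouabain call was lost under the B2m and reference gene centrings. Srsf4, Srsf9, Srsf11, Srsf12 and Tra2b did not pass in either treatment, their log2 differences ranging from -0.20 (Srsf4 with ouabain) to 0.25 (Srsf11 in K+-free medium). Tra2b differed by 0.23 with ouabain (95% interval 0.11 to 0.35), under the fold limit.

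**Figure D2:**
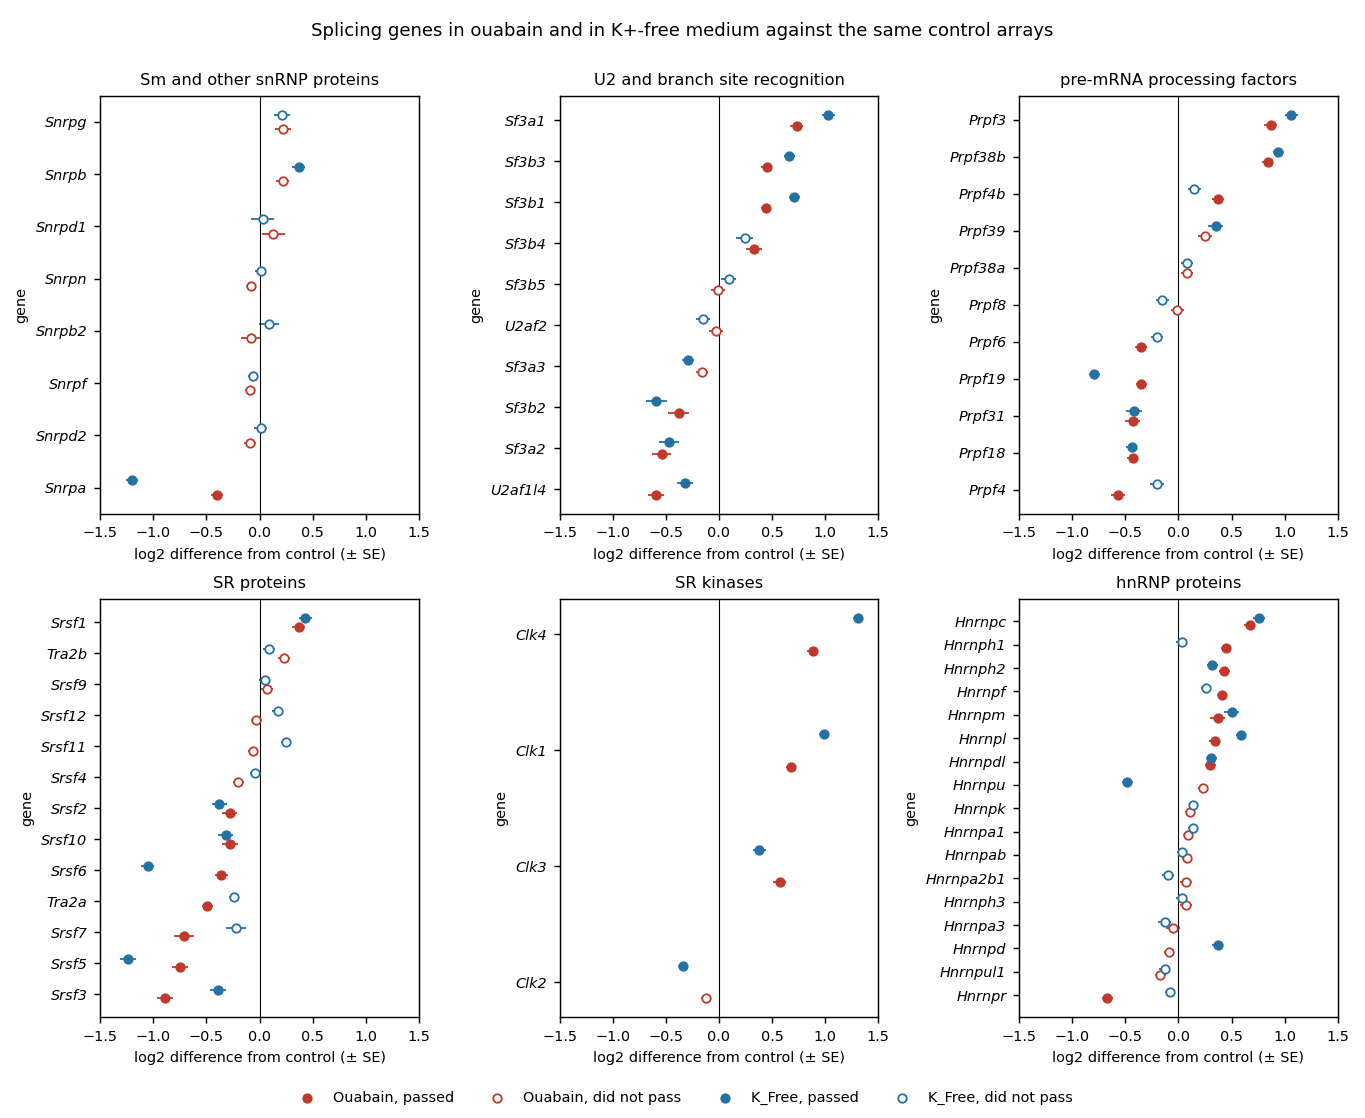
Log2 difference from control (horizontal axis, ± SE) of each gene (vertical axis) in 6 panels by role, red for ouabain and blue for K+-free medium, filled where the test was passed. SR proteins lie mostly left of 0 (Srsf5 at -0.75 and -1.24), Clk1, Clk3 and Clk4 lie right of it, and hnRNP proteins lie mostly at or right of it except Hnrnpr with ouabain (-0.67) and Hnrnpu in K+-free medium (-0.48).

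Of the 4 SR kinases, Clk1, Clk3 and Clk4 rose in both treatments, beside 17.5% and 17.8% of all gene symbols. With ouabain 0 fell and in K_Free 1 fell, beside 22.7% and 24.0%. B2m centring gave 3 higher and 1 lower with ouabain, and 2 and 1 in K_Free. Under it 7.92% of all probe sets were higher and 22.8% lower with ouabain, and 8.69% and 25.8% in K_Free. Clk1 read 11.26, 11.28 and 11.25 in control, 11.93, 11.92 and 11.98 with ouabain and 12.29, 12.25 and 12.22 in K+-free medium. Clk4 read 9.50, 9.51 and 9.54, then 10.42, 10.34 and 10.42, then 10.82, 10.81 and 10.86. For both genes the arrays formed 3 separate steps with K+-free medium highest. Clk1 rose 1.6-fold and 1.98-fold (adjusted p = 4.97e-07 and 2.52e-08), and Clk4 rose 1.84-fold and 2.49-fold (adjusted p = 9.05e-08 and 4.47e-09). The rise of Clk4 was the largest among the 63 genes in each treatment.

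Clk3 read 9.14, 8.94 and 9.02 in control, 9.62, 9.58 and 9.61 with ouabain and 9.47, 9.38 and 9.40 in K+-free medium. It rose 1.49-fold and 1.3-fold, the latter call being lost under B2m centring, with ouabain above K+-free medium on every array. Clk2 did not follow its relatives: it read 10.64, 10.65 and 10.66 in control, 10.51, 10.56 and 10.51 with ouabain and 10.29, 10.37 and 10.27 in K+-free medium. It fell 1.27-fold in K_Free (adjusted p = 0.00014), and the ouabain difference of -0.12 did not pass (adjusted p = 0.0589).

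Of the hnRNP proteins, 7 of 17 rose with ouabain (41.2%, beside 17.5% of all gene symbols), 1 fell (5.88%, beside 22.7%) and 9 did not pass. In K+-free medium 6 rose (35.3%, beside 17.8%), 1 fell (beside 24.0%) and 10 did not pass. These counts depended on the scaling, since B2m centring left 3 higher and 2 lower with ouabain and 3 and 3 in K+-free medium, of 17, where all probe sets gave 7.92% and 22.8%, and 8.69% and 25.8%. Hnrnpc, which binds uridine tracts, read 11.22, 11.13 and 11.14 in control, 11.83, 11.90 and 11.76 with ouabain and 11.94, 11.88 and 11.94 in K+-free medium. All 6 treated arrays lay above the control arrays, with rises of 1.59-fold and 1.69-fold (adjusted p = 1.69e-06 and 5.14e-07).

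Hnrnpl, which binds CA repeats, read 10.84, 10.81 and 10.80 in control, 11.17, 11.20 and 11.13 with ouabain and 11.37, 11.43 and 11.42 in K+-free medium, rises of 1.27-fold and 1.5-fold. Hnrnpm rose by 0.37 and 0.50 on the log2 scale, and Hnrnpdl by 0.30 and 0.31. Under B2m and reference gene centring the ouabain calls of Hnrnpl, Hnrnpm and Hnrnpdl were lost, as was the K_Free call of Hnrnpdl.

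The related genes Hnrnpf, Hnrnph1, Hnrnph2 and Hnrnph3 encode proteins that bind runs of guanine. Hnrnph1 read 11.36, 11.30 and 11.34 in control, 11.79, 11.74 and 11.80 with ouabain and 11.36, 11.32 and 11.41 in K+-free medium. It was high only on the ouabain arrays, 1.36-fold above control (adjusted p = 1.77e-05), while K+-free medium overlapped control (log2 0.03, 95% interval -0.07 to 0.14). Hnrnph2 rose in both treatments (0.43 and 0.32) and Hnrnpf with ouabain (0.41), its K+-free difference of 0.26 being under the fold limit, whereas Hnrnph3 did not pass (0.07 and 0.03). A second, dimmer probe set of Hnrnpf passed in both treatments (0.45 and 0.42), and the K_Free call of Hnrnpf was gained in 6 alternatives. The K_Free call of Hnrnph2 was lost under B2m and reference gene centring, and the ouabain call of Hnrnpf under B2m centring.

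Hnrnpr and Hnrnpu were the hnRNP genes that fell, each in a single treatment. Hnrnpr, a relative of Syncrip, read 10.25, 10.31 and 10.27 in control, 9.64, 9.58 and 9.59 with ouabain and 10.21, 10.14 and 10.24 in K+-free medium. Ouabain lowered it 1.6-fold (adjusted p = 7.57e-07), while the K+-free difference of -0.08 did not pass (95% interval -0.19 to 0.03). Hnrnpu, which also organises nuclear chromatin, read 12.20, 12.22 and 12.19 in control, 12.45, 12.37 and 12.48 with ouabain and 11.74, 11.71 and 11.71 in K+-free medium. It fell 1.4-fold in K+-free medium (adjusted p = 8.51e-06), while its ouabain arrays all lay above control, by 0.23 on the log2 scale (adjusted p = 0.00257), which was under the fold limit.

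Hnrnpd, whose product AUF1 binds AU-rich elements and promotes mRNA decay, read 11.65, 11.72 and 11.73 in control, 11.64, 11.58 and 11.60 with ouabain and 12.05, 12.03 and 12.11 in K+-free medium. It rose 1.29-fold in K+-free medium, a call lost under B2m centring, and its ouabain difference of -0.09 did not pass. The abundant core proteins did not pass in either treatment: Hnrnpa1 differed by 0.09 and 0.14, Hnrnpa2b1 by 0.07 and -0.10, Hnrnpa3 by -0.05 and -0.13, and Hnrnpk by 0.11 and 0.14. Hnrnpab (0.08 and 0.03) and Hnrnpul1 (-0.17 and -0.13) did not pass either. Hnrnpa1 and Hnrnpa3 have near-identical copies in the genome and were read by 3 and 8 probe sets, so signal may be shared between copies. None of those probe sets passed.

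**Figure D3:**
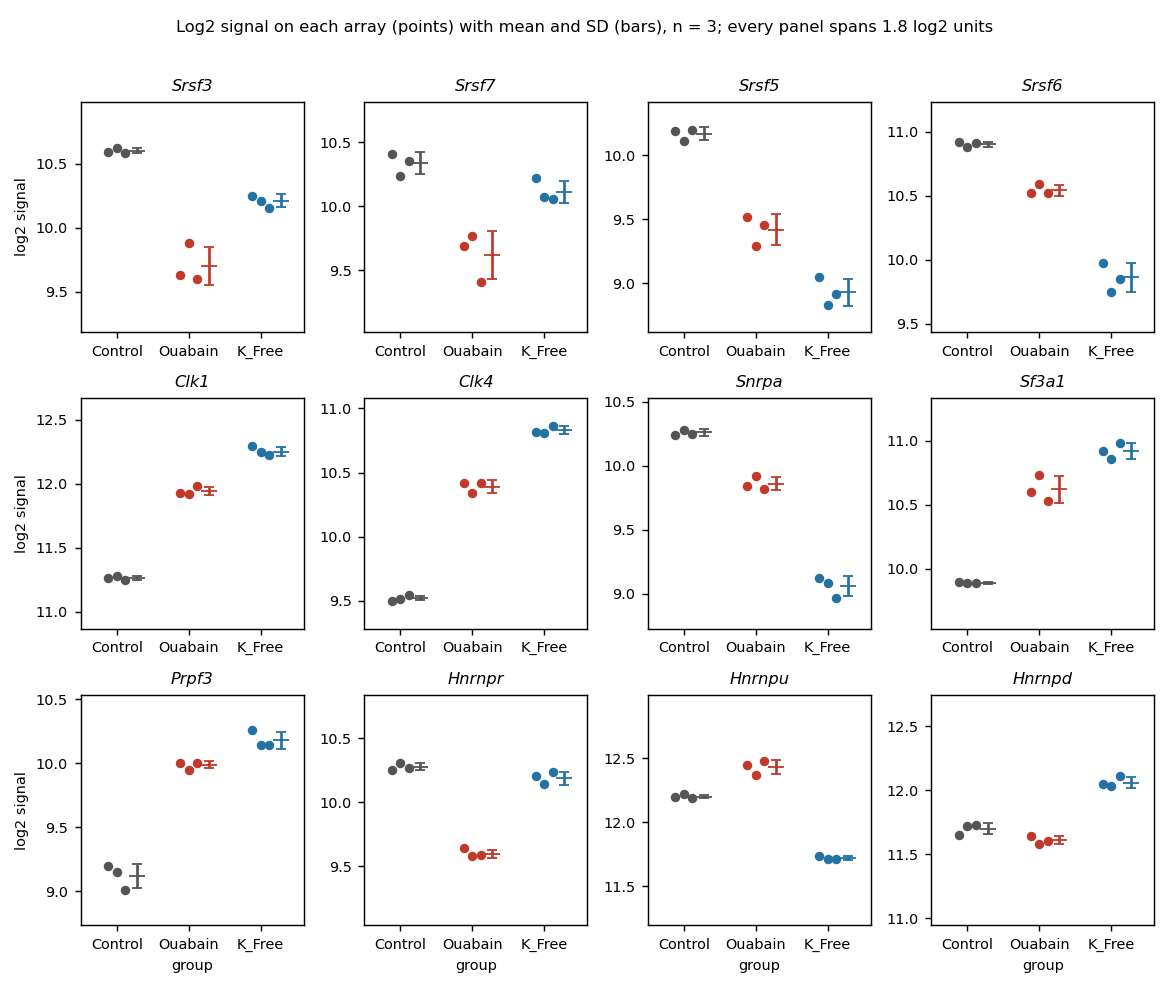
Log2 signal (vertical axis) of 12 genes on each array, grouped as Control, Ouabain and K_Free, with the mean and SD of 3 arrays beside the points. Srsf3 and Srsf7 are lowest with ouabain (means near 9.70 and 9.62), Srsf5 and Srsf6 are lowest in K+-free medium, and Clk1 and Clk4 rise in steps. Hnrnpr, Hnrnpu and Hnrnpd each passed the test against control in a single treatment.

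Over the whole set 41 genes passed in at least 1 treatment. Of these, 26 passed in both, 14 higher and 12 lower, 9 passed with ouabain only at this threshold and 6 in K+-free medium only. Under both B2m and reference gene centring, Prpf4, Prpf6, Srsf7 and Tra2a were also called lower in K_Free, and Sf3a3 with ouabain. Calls against control that these centrings removed are given with each gene above. The same shares over all gene symbols were not computed, so these counts do not set splicing genes apart from the rest of the array. The paper, at its own threshold, found most of the transcripts changed by each treatment to be changed by both. No gene was called in opposite directions. Hnrnpu nevertheless differed by 0.23 with ouabain (limma adjusted p = 0.00257), under the fold limit, and by -0.48 in K_Free (limma adjusted p = 8.51e-06). The control arrays are common to both contrasts, so that an error in those arrays moves both differences the same way. The 21 genes that passed in no comparison had 95% intervals between -0.31 and 0.39 on the log2 scale in both treatments, within 1.5-fold for each of the 21. An adjusted p under 0.05 with a fold below the limit was found in at least 1 treatment for 7 of them.

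In the direct comparison of K+-free medium with ouabain, the log2 difference does not use the control arrays. Its SE and adjusted p do, because the same fit covered all groups. In this comparison 11 genes were higher in K+-free medium (17.5%), 6 were lower (9.52%) and 46 did not pass. Of gene symbols 10.9% and 10.7% were higher and lower, and of probe sets 8.45% and 7.97%. The share that was lower thus stood at the background. Fitted without the control arrays, 10 genes were higher and 6 lower, and the call of U2af1l4 was lost. The arrays of the 2 treatments did not overlap for 36 genes, against 32.4% of all probe sets. The median size regardless of sign was 0.15, beside 0.10 over gene symbols, smaller than against control.

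Genes lower in K+-free medium than with ouabain were Snrpa (log2 -0.81 ± 0.056 SE, adjusted p = 2.32e-06), Hnrnpu (-0.71 ± 0.049, adjusted p = 2.14e-06), Srsf6 (-0.68 ± 0.061), Srsf5 (-0.49 ± 0.074), Prpf19 (-0.44 ± 0.050) and Hnrnph1 (-0.41 ± 0.049). Of these, Snrpa, Srsf5, Srsf6 and Prpf19 had fallen in both treatments and fell further without K+. Hnrnph1 had risen with ouabain only, and Hnrnpu had fallen without K+ only.

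Genes higher in K+-free medium than with ouabain were led by Hnrnpr (0.59 ± 0.050, adjusted p = 9.41e-06), Srsf3 (0.50 ± 0.072), Srsf7 (0.49 ± 0.092), Hnrnpd (0.46 ± 0.050) and Clk4 (0.44 ± 0.049, adjusted p = 7.27e-05). Prpf4 (0.37), Clk1 (0.31), Srsf11 (0.31), Sf3a1 (0.30), Sf3b1 (0.27) and U2af1l4 (0.27) completed the list. The call of U2af1l4 was lost in 10 alternatives, among them leaving out Ouabain replicate 1 or 3 or K_Free replicate 1 or 2, that of Srsf7 in the methods' t-test, that of Sf3a1 in the same test and without Ouabain replicate 3, and that of Sf3b1 without Ouabain replicate 2 or K_Free replicate 2. The SR family thus held members on both sides, with Srsf3, Srsf7 and Srsf11 higher and Srsf5 and Srsf6 lower.

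**Figure D4:**
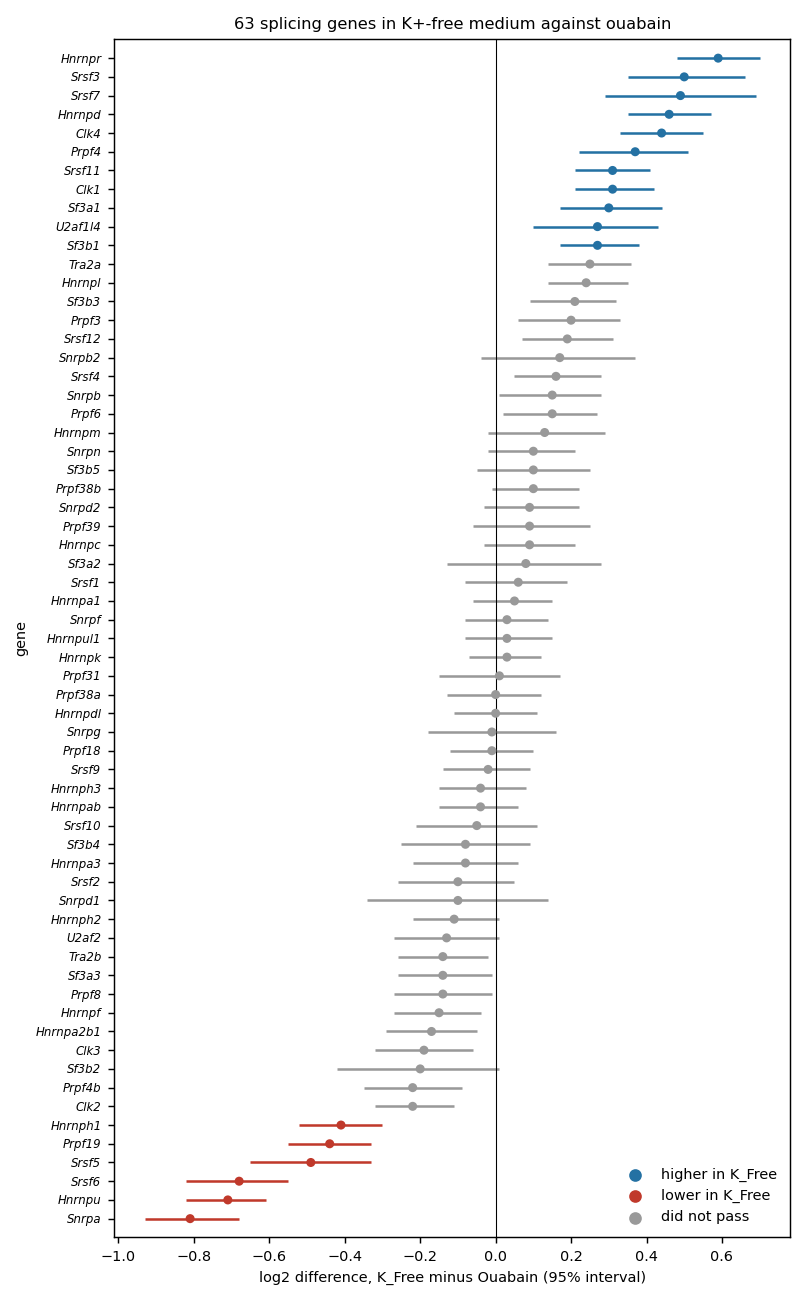
Log2 difference of K_Free minus Ouabain (horizontal axis, with 95% interval) for the 63 genes in order of size (vertical axis), blue where higher in K+-free medium, red where lower and grey where the test was not passed. The range runs from Snrpa at -0.81 to Hnrnpr at 0.59.

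To show the sequence at the starts of genes that moved together, the 250 bases before the RefSeq transcription start (build GRCr8) were searched on both strands. Windows were found for 60 of the 63 genes, all but Sf3b2, Tra2a and U2af2. The letters CCGGAAG, the core bound by ETS family factors, stood in 15 of the 60 windows (25%), against 11.2% of 11806 measured genes and 7.74% of all 27457 genes. They stood in 7 of 18 genes lower in at least 1 treatment, in 3 of 21 higher and in 5 of 21 that passed in neither. Windows of 30 bases around the match are given for all 7 lower genes, with the motif or its complement in capitals. Without centring, Srsf7 and Prpf6 of these passed with ouabain only, Sf3a3 in K_Free only and the others in both.
Srsf5 (chr6:106336631-106336660, + strand): ccccactaggaCTTCCGGctccgcggaaac
Srsf7 (chr6:20563817-20563846, + strand): caggagaccgcCCGGAAGgccacaggtttc
Sf3a2 (chr7:9566235-9566264, - strand): cttccttgcccCCGGAAGtgattgctcaag
Sf3a3 (chr5:142252334-142252363, + strand): cccccaagccaCTTCCGGgacacgcggaac
Prpf6 (chr3:189084435-189084464, + strand): gaccccgatctctaCTTCCGGtgcgccagt
Prpf18 (chr17:78539841-78539870, + strand): cccaacttccgCCGGAAGcgactcgggcag
Prpf19 (chr1:216966393-216966422, + strand): tggaaaactcgCCGGAAGaagccgagccaa

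The letters CCAAT, bound by NF-Y, stood in 29 of the 60 windows (48.3%), against 35.6% of measured genes and 34.3% of all genes. They occurred in 11 of 21 higher genes, 7 of 18 lower genes and 11 of 21 that did not pass. As examples, the following windows show the match nearest the start in the 2 rising genes Hnrnpc and Clk4 and the 2 falling genes Srsf3 and Hnrnpr, again with the motif or its complement in capitals.
Hnrnpc (chr15:27282733-27282762, - strand): gaaaagtcacagCCAATagaaacgcctccg
Clk4 (chr10:36024389-36024418, + strand): cttcagagacaaATTGGcttgaaaagtggc
Srsf3 (chr20:7093484-7093513, + strand): gcgccgcctctgATTGGgcgagctggtcag
Hnrnpr (chr5:153826410-153826439, + strand): tccctctctctgATTGGtccgctgagctgc

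Of the other motifs searched, GGGCGG (GC box) stood in 58.3% of the windows and 47.3% of measured genes, ACGTG in 40.0% and 19.5%, and GCGTG in 51.7% and 36.2%; the last 2 are the core letters of a hypoxia response element. TATAAA stood in 10.0% and 11.3%, TGACGTCA (the cAMP response element) in 1.67% and 2.27%, and TGANTCA (the AP-1 site) in 3.33% and 5.48%. A match is a description of letters and says nothing of a factor's binding in these cells.

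Further genes of the splicing machinery, taken from 6 textbook lists, covered 157 measured genes. With ouabain 46 rose and 41 fell (29.3% and 26.1%, beside 17.5% and 22.7% of all gene symbols), and without K+ 42 rose and 44 fell (26.8% and 28%, beside 17.8% and 24.0%). When K_Free was set against Ouabain, 20 passed as higher and 18 as lower (12.7% and 11.5%), close to the 10.9% and 10.7% of all gene symbols. The shares of all gene symbols against control serve as background for each list that follows. The SMN complex and its partners, which load Sm proteins on snRNA, had 9 of 17 lower with ouabain (52.9%, beside 22.7%) and 8 in K+-free medium (47.1%, beside 24.0%), while 2 rose in each (11.8%). Gemin4, a subunit of the complex, read 8.49, 8.40 and 8.48 in control, 6.01, 6.43 and 6.28 with ouabain and 6.48, 6.57 and 6.62 in K+-free medium, falls of 4.65-fold and 3.73-fold. Gemin4 also stands among the genes that the study itself chose on these samples, so its direction is not independent evidence. The arginine methyltransferase gene Prmt7 fell 4.16-fold and 2.64-fold, and Gemin8 fell 2.85-fold and 1.61-fold.

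Of 16 measured helicases and remodelling factors, 6 fell with ouabain (37.5%, beside 22.7%) and 7 in K+-free medium (43.8%, beside 24.0%). The 3 that were higher in each (18.8%) stood at the background of 17.5% and 17.8%. Tfip11 did not pass here (0.14 and 0.25 on the log2 scale), whereas the paper lists it among its decreased genes. The source of that discrepancy was not tested. The DEAD-box genes Ddx42 and Ddx46, whose products act with the U2 particle, were lowest in different treatments. Ddx42 read 10.70, 10.67 and 10.61 in control, 9.37, 9.05 and 9.15 with ouabain and 10.29, 10.10 and 10.21 in K+-free medium. Ddx46 read 10.52, 10.51 and 10.52, then 9.92, 9.93 and 9.92, then 9.07, 8.87 and 9.05. Their differences between K+-free medium and ouabain were 1.01 and -0.92 on the log2 scale (adjusted p = 7.05e-06 and 1.27e-06). Dhx35 fell by 1.19 and 1.12 on that scale against control.

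Of 54 other splicing regulators, 24 rose in each treatment (44.4%, beside 17.5% and 17.8%), 7 fell with ouabain (13.0%, beside 22.7%) and 8 in K+-free medium (14.8%, beside 24.0%), and 23 and 22 did not pass. Ptbp2, a polypyrimidine tract binding protein, rose by 0.80 on the log2 scale in each treatment, while Tia1, a U-rich binding protein of stress granules, fell 3.14-fold and 2.14-fold, and the cold-inducible Cirbp fell 2.49-fold and 2.15-fold. Rbm39, a U2AF-related protein, rose by 0.57 on that scale in K_Free, beside -0.01 with ouabain. Esrp2, known as an epithelial regulator, read 6.69, 6.67 and 6.62 in control, 7.46, 7.71 and 7.48 with ouabain and 6.34, 6.46 and 6.45 in K+-free medium. It rose 1.85-fold with ouabain, and its control and K+-free values lay below the median of all probe sets.

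The other snRNP and Lsm proteins had 5 of 30 higher and 9 lower with ouabain (16.7% and 30%, beside 17.5% and 22.7%), and 3 and 12 in K+-free medium (10.0% and 40.0%, beside 17.8% and 24.0%). Luc7l3, a relative of yeast U1 proteins, rose by 0.68 on the log2 scale with ouabain and differed by -0.08 in K+-free medium. On the same scale Lsm10 and Lsm11, of the U7 particle, fell by 1.06 and 0.88 and by 0.28 and 0.82. Of the minor spliceosome proteins, Zcrb1 fell by 0.97 and 0.81, and Rnpc3 differed by -0.14 with ouabain and fell by 0.80 in K_Free. Prp19 complex and catalytic step proteins were split, with 9 of 30 higher and 10 lower with ouabain (30% and 33.3%) and 9 and 9 in K+-free medium (30% each). Zmat2 fell 2.49-fold and 1.9-fold, Ppil2 2-fold and 2.36-fold, and Gpatch1 by 1.06 and 0.89 on the log2 scale, while Ppil1 (-0.25 and 0.13 from control) was 0.38 higher in K_Free than in Ouabain. In the exon junction complex, which marks spliced mRNA, 3 of 10 rose with ouabain (30%, beside 17.5%) and 1 in K+-free medium (10.0%, beside 17.8%), and none fell. Alyref (0.39) and Pnn (0.34) rose with ouabain, with 0.14 and -0.21 in K_Free not passing, and Sap18 was 0.39 higher in K_Free than in Ouabain. The core gene Magoh rose 1.95-fold and 2.05-fold, reading 8.90, 8.90 and 8.94 in control, 9.91, 9.77 and 9.94 with ouabain and 10.00, 9.81 and 10.03 in K+-free medium.

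**Figure D5:**
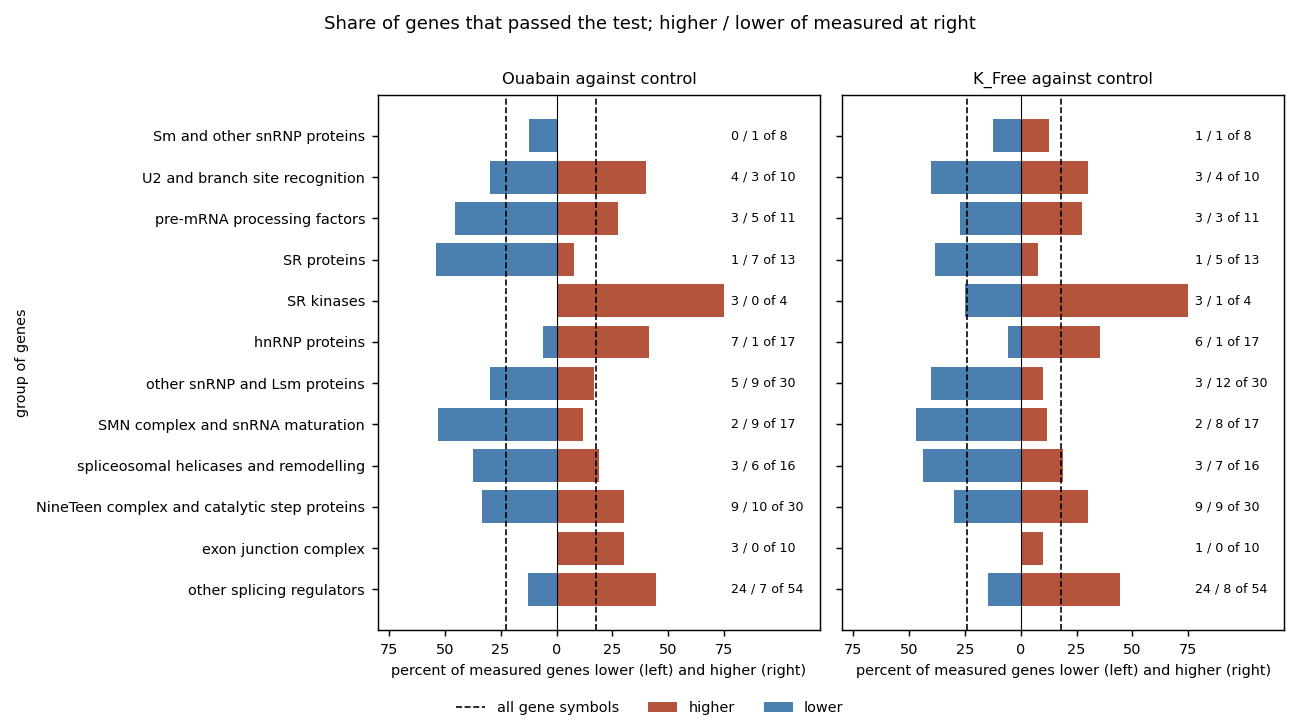
Percent of measured genes that were higher (right of 0) or lower (left of 0) in each of 12 groups of splicing genes, for ouabain and for K+-free medium against control, with counts at the right and dashed lines at the share of all gene symbols. With ouabain SR proteins (7 of 13) and the SMN complex (9 of 17) extend furthest to the left, and the SR kinases (3 of 4) extend furthest to the right in both panels.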

How the data were processed

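The deposited log2 signals of 27342 probe sets on 9 arrays were made by the authors with RMA and Partek, per the labels' processing notes, without versions; the methods also name MAS5 and GeneSpring. No further scaling was applied. RMA quantile normalization forces equal distributions on all arrays, so a change in total mRNA cannot be seen. Probe sets were named by the platform annotation, and genes were assigned to groups by symbol.

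limma 3.58.1 in R 4.3.3 fitted 1 mean per group to all 9 arrays (prior 4.59 degrees of freedom), with Benjamini-Hochberg adjustment across the 27342 probe sets within each contrast. Calls needed both an adjusted p below 0.05 and more than 1.2-fold change. The fit was tested on simulated data. Members and lists were chosen with earlier results of these data known. Named genes were the 4 largest differences per role group and contrast, every member passing in neither treatment, all Clk, Tra2 and U2af members, and the 2 largest called differences per further list and contrast. Chosen outside that rule, after their values were seen, were Ptbp2, the remaining called members (Hnrnpdl, Hnrnpf, Prpf31, Prpf39, Prpf6, Sf3a3, Sf3b4, Srsf10 and Srsf2), which complete the set, and single marker genes. Promoters came from RefSeq (GRCr8). Plots were drawn with matplotlib 3.10.9. Alternatives covered normalization, centring, filters, moderation, test, fold limit, probe set choice, the replicate number as a block and leaving out each array. The authors' own fold changes were not used.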

Additional observations from a re-analysis of the deposited data

How the results depend on the processing

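The array count limits precision to 3 replicates per group, and gene-level probe sets cannot show isoform shifts. Repeated quantile normalization, array median or reference gene centring, filters, moderation, the ordinary analysis of variance, the methods' t-test and averaging a gene's probe sets kept all 6 counts of called members within 1.5 times. Members chosen by current RefSeq symbol are the same 63 genes. No called member changed sign in any alternative.

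Centring on B2m, which moved the median of all probe sets from 0.07 to -0.08 with ouabain and from 0.06 to -0.10 in K+-free medium, gave 11 members higher with ouabain (18 without it), and 11 and 23 higher and lower in K_Free (17 and 15); 14 calls were lost and 12 gained. A fold limit of 1.5 left 6 higher and 5 lower with ouabain, 9 and 5 in K_Free, and 1 and 3 for K_Free against Ouabain (11 and 6 at 1.2). With no fold limit 17 were higher in K+-free medium than with ouabain. These follow from the limit itself. Leaving out 1 array at a time gave 18 to 20 higher and 16 to 17 lower with ouabain, 17 to 19 and 14 to 15 in K+-free medium, and 9 to 11 and 6 between treatments. The methods' t-test after Benjamini-Hochberg gave 17 and 15, 17 and 14, and 8 and 6.

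Samples with the same replicate number did not all deviate together (correlations -0.0464 to 0.309, beside -0.284 to 0.163 for different numbers). The highest correlations, 0.309 and 0.231, were between Ouabain and K_Free arrays of the same number. The labels do not say that the number marks the experiment, so the numbers were not used as pairs. With the number as a replicate block the counts stayed at 18 and 17, 17 and 15, and 11 and 6, and no member's call changed.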
